A study of Mus musculus with 17 samples.

Results

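The late phase after kidney ischemia reperfusion injury (IRI) was taken as the IRI and sham samples of days 14, 21 and 30 after surgery. These are 6 of the 17 samples of the series, 1 IRI and 1 sham sample for each day, and each was read for 569 mature mouse miRs. All samples were kidney RNA pooled from 3 C57/BL6 mice aged 10 to 12 weeks. IRI mice had 30 minutes of warm ischemia, which the study's text describes as unilateral, and sham mice had surgery without it. The labels give female mice and the methods male mice. Each array carried both pools of 1 day, IRI in Cy3 and sham in Cy5. The dyes were never swapped, so that on these 3 arrays an effect of the injury and a constant bias of the dyes cannot be told apart. Each day held 1 pool per arm, and the days were used as the replicates. The smallest p that an exact sign-flip test of a single miR over 3 arrays can give is 0.25, so calls rest on limma, which shares the spread among miRs. The question was which miRs stood apart from sham once the acute injury was over, and which of these differences were larger than on the earlier days.

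MiRs are short RNAs that guide Argonaute proteins to messenger RNAs, chiefly through the seed, bases 2 to 8 from the 5′ end, and lower their translation and stability. After ischemia the kidney goes through tubule cell death and inflammation, then regrowth of the tubules, and in the weeks that follow leukocytes and matrix-producing interstitial cells can persist. MiRs with well known cell sources, such as miR-192 and miR-194 in tubule epithelium, miR-150 in lymphocytes and miR-451 in red blood cells, are read in whole-kidney RNA as a mixture of those cells. In such tissue RNA, fewer cells of a type and less of the miR per cell cannot be told apart.

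The mature sequences of the miRs on which the results turn are given here with the seed in capitals, from RefSeq (GRCm38.p6). Of the 96 miRs bright enough to be tested, 77 had a target sequence identical to a RefSeq mature miR, 1 shared its 5′ start and 18 were not matched. The first set holds the 4 miRs with the highest late IRI/sham ratios and miR-155, a leukocyte-linked miR that was also higher. The miR-146 pair shares 1 seed and lies within an edit distance of 2, so its probes may share signal. The sequence named miR-199a-3p is also that of miR-199b-3p, and the array cannot separate them.
miR-146b: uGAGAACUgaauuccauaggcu
miR-146a: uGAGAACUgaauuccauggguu
miR-21: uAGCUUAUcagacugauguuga
miR-199a-3p: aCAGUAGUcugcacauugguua
miR-155: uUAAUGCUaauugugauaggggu

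The second set holds miRs that were lower in late IRI. MiR-200a lies at chr4:156054911-156054932 on the minus strand between miR-200b and miR-429, whose seed differs from its own. MiR-192 and 1 locus of miR-194 are neighbours on the plus strand of chromosome 19, between positions 6264658 and 6264877, and the array cannot separate this locus from that on chromosome 1.
miR-451: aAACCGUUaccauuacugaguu
miR-200a: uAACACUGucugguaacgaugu
miR-429: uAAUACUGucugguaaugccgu
miR-192: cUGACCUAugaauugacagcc
miR-194: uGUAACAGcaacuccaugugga

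The third set holds families with 1 seed whose members did not all move alike.
miR-15b: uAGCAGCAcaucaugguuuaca
miR-15a: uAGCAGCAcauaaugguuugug
miR-195: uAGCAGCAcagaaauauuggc
miR-16: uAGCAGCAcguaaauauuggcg
let-7b: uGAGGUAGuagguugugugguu
let-7c: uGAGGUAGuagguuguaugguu
let-7i: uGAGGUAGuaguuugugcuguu

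Values below are normalized intensities, on a scale common to all arrays, and differences are log2 IRI/sham ratios, so that values above 0 are higher in IRI. A miR was tested when its mean log2 level over the 6 late samples reached that of an intensity of 200. The miRs just under this filter were miR-374 at 194 and miR-574-3p at 197, and those just over it were miR-183 at 202 and miR-139-5p at 219. Of the 473 miRs not tested, 348 were above the empty spots in no late sample, 96 in some and 29 in all 6. Median empty spots read 185.5 to 207.1 in IRI and 33.0 to 43.9 in sham, the mean miR signal over this was 1137 to 1344 in IRI and 536.6 to 854.0 in sham, and between 136 and 206 miRs per sample were above background. Replicate spots of a miR varied with a median coefficient of variation of 5.01% to 16.2% in IRI and 5.94% to 9.91% in sham. Of 15 miRs listed for kidney tubules, 10 were above background in all late samples.

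The sham pool of day 30 stood apart from the other samples. MiR-122, the dominant miR of hepatocytes, read 1648 ± 152.8 (SD of 6 spots) in the sham pool of day 30, 37.5 times the median empty spot, and between 1.06 and 1.42 times that level in each of the other 16 samples. The same pool held 3571 in the authors' processed table, against 16 to 36 elsewhere. Of 8 miRs listed for liver, muscle and neurons, 5 were above background in no late sample, and their summed signal over the offset was 304.9 to 378.1 in IRI and 343.8 to 3684 in sham. Results are therefore also given without day 30 where a call or a list's count changed, and the part of this pool's other content in them was not tested.

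Late IRI differed from sham in 52 of the 96 miRs tested, or 54.2%, with 30 higher (31.2%) and 22 lower (22.9%) at an adjusted p under 0.05. The highest ratios were those of miR-146b, miR-21, miR-146a, miR-199a-3p and miR-150, between 3.37-fold and 9.68-fold, and the lowest were those of miR-805, miR-451 and miR-486, between 3.56-fold and 8.14-fold lower. The ratio had the same sign on all 3 arrays in 49 of the 52, and the IRI and sham samples did not overlap in 47 of the 52. Over all tested miRs, the same figures were 72 and 60 of 96, and the median ratio was 0.05. Without day 30, 29 were higher and 20 lower. Median scaling instead of the loess curve raised the median ratio of the tested miRs to 0.53, and the calls were then 33 higher and 5 lower. The 5 were miR-805, miR-451, miR-486, let-7b and let-7c, whereas the authors' processed values gave 25 higher and 25 lower. The ratios of the 96 miRs on day 14 had a Pearson's r of 0.90 with those on day 21 and 0.81 with those on day 30, and days 21 and 30 had 0.83, across miRs that share samples, dyes and arrays.

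**Figure D1:**
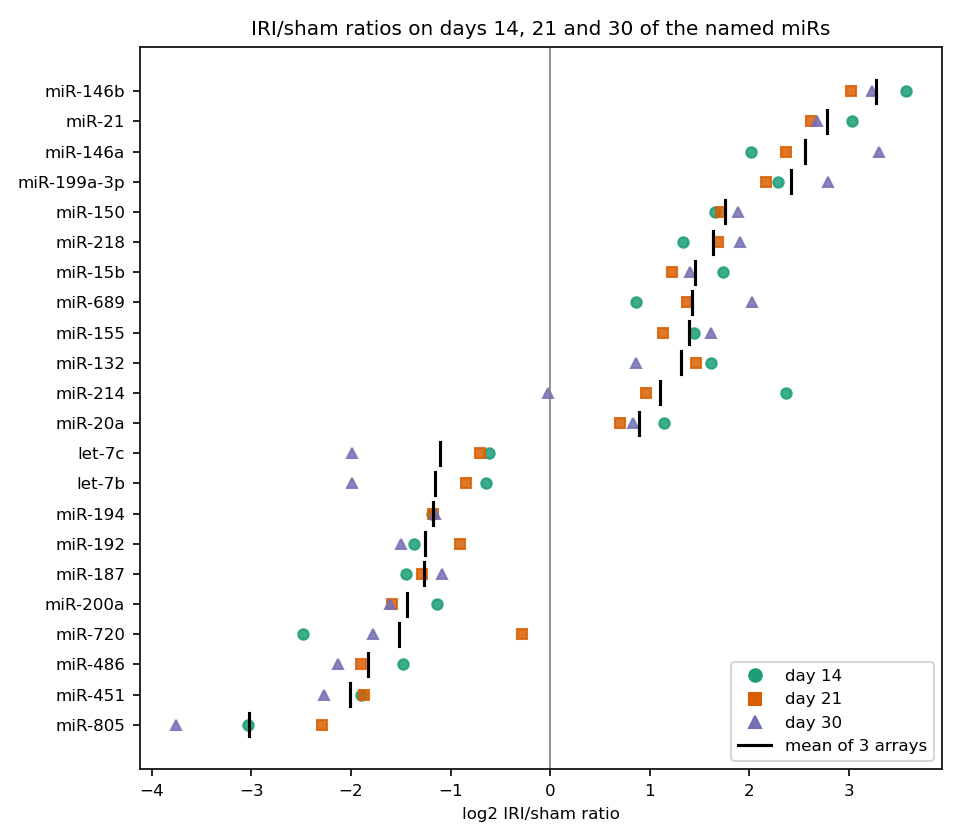
Log2 IRI/sham ratio (x axis) of 22 named miRs (rows), with 1 point for each late array and a bar for the mean of the 3. MiR-146b, miR-21, miR-146a and miR-199a-3p lay above 2 on all 3 days, miR-214 ranged from -0.02 to 2.36, and let-7b and let-7c were lowest on day 30.

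Among the lists, the leukocyte-linked miRs had the highest median ratio. Of 10 listed members 5 were tested, all 5 were higher in IRI, against 31.2% of all tested miRs, and their median ratio was 1.75 against 0.05. MiR-146b passed the filter on low levels through its IRI level only, so a higher IRI level was a condition of its being tested and its call adds nothing to that count. MiR-146b, which is induced by NF-kB signalling and acts on TRAF6 and IRAK1, read 1169, 855 and 1234 in IRI on days 14, 21 and 30, and 98.7, 105 and 131 in sham. Every late IRI sample was above every sham sample, and sham was above background on 2 of 3 arrays. The ratio was 3.27 ± 0.23 (SE moderated by limma, here and below, n = 3 arrays, limma adjusted p = 3.3e-09), or 9.68-fold. Since sham was close to background, the size depends on the processing, from 2.42 with a floor of 200 to 3.95 under median scaling, and the call held under the 15 alternatives in which it was tested. A filter at 400 left it out. MiR-146a, which has the same seed and the same targets, read 2886, 2759 and 5305 in IRI and 713, 534 and 540 in sham. Its ratios of 2.02, 2.37 and 3.30 had a mean of 2.56 ± 0.26 (SE, adjusted p = 2.0e-07).

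MiR-150, a miR of mature lymphocytes that represses Myb, read 751, 938 and 1533 in IRI and 239, 286 and 415 in sham. The arms did not overlap, and the ratio was 1.75 ± 0.22 (SE, adjusted p = 4.4e-06). MiR-155, which activated lymphocytes and macrophages make in large amounts, read 1094, 875 and 1874 in IRI and 404, 400 and 613 in sham, with a ratio of 1.39 ± 0.23 (SE, adjusted p = 7.4e-05). MiR-181a, abundant in developing lymphocytes, had ratios of 0.43, 0.83 and 1.35 (adjusted p = 0.0051). Among the 5 members not tested, miR-223, the main miR of neutrophils and monocytes, was above background in all 3 IRI samples and in no sham sample, and was at least 2.65-fold higher in IRI against the weakest signal above background. MiR-342-3p read 275, 254 and 530 in IRI and 96.4, 97.9 and 147 in sham, and miR-181b read 251 to 316 and 112 to 138. MiR-142-3p and miR-142-5p, which all white blood cells carry, were above background in no late sample. The summed signal of the 10 listed miRs over the offset was 6715 to 11728 in IRI and 1739 to 2198 in sham, and the part of leukocyte number in these ratios was not tested.

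MiR-21, which is raised in injured epithelium and in fibrosis, read 31856, 25756 and 26294 in IRI and 3896, 4201 and 4115 in sham. The arms were far apart on every late day, at a ratio of 2.77 ± 0.23 (SE, adjusted p = 2.1e-08), or 6.84-fold. Its ratio on days 1, 3 and 5 already had a mean of 2.19 and on days 7 and 10 of 2.59, and the late ratio was higher than the early one by only 0.59 ± 0.43 (SE, adjusted p = 0.39).

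Interstitial miRs were tested in 4 of 8 listed cases, and 2 were higher (31.2% of all tested miRs), 1 was lower (22.9% of all) and 1 was not called. The median ratio was 0.66, and under median scaling it was 1.12 and none was lower. MiR-199a-3p, a miR of fibroblasts and other mesenchymal cells, read 7698, 5518 and 9171 in IRI and 1576, 1227 and 1323 in sham. Its ratio was 2.42 ± 0.23 (SE, adjusted p = 1.3e-07), or 5.34-fold, with no overlap. MiR-214, transcribed with miR-199a from chromosome 1, read 4457, 4157 and 2711 in IRI and 866, 2136 and 2751 in sham. IRI was well above sham on day 14 and level with it on day 30, with ratios of 2.36, 0.96 and -0.02. The mean of 1.10 ± 0.32 (SE, adjusted p = 0.0076) lost its call in 6 of 16 alternatives, among them the authors' processed values and without day 14, when it was 0.47. The SD of the miR-214 ratios over the late days was 1.20, against a median SD of 0.30 over all tested miRs. The untested 5′ partner miR-199a-5p read 221 to 248 in IRI and 115 to 131 in sham. MiR-145, a smooth muscle miR, had ratios of -1.06, -0.14 and -1.45 and a mean of -0.88 (adjusted p = 0.0076), and its call was lost without day 14 and without day 30. MiR-143, which is transcribed with it, had a ratio of 0.22 (adjusted p = 0.44). MiR-29a and miR-29c, which target collagen messages, had ratios of -0.33 (adjusted p = 0.22) and -0.39 (adjusted p = 0.18). Under median scaling these were 0.03 and 0.18, and without day 30 miR-29c was lower, at -0.68 (adjusted p = 0.027).

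**Figure D2:**
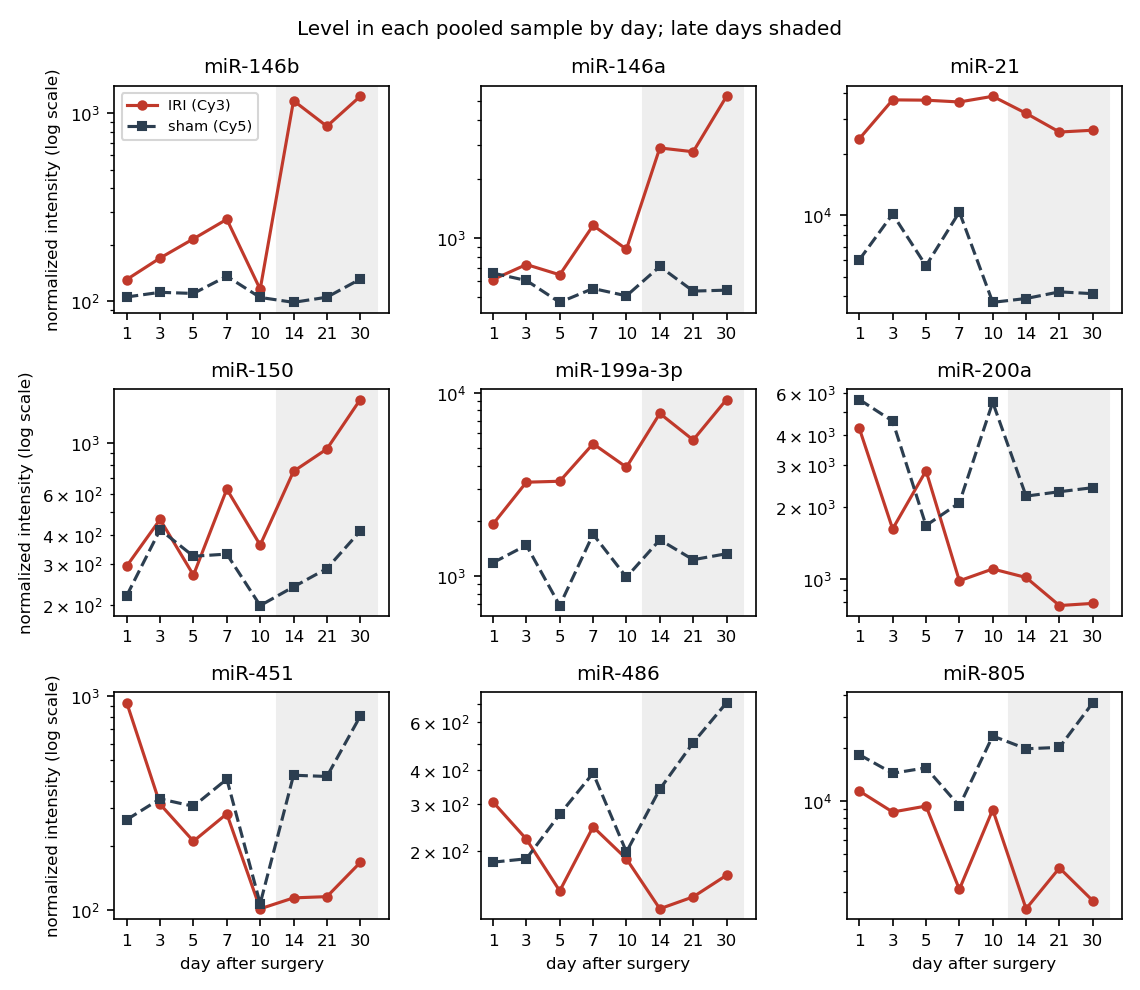
Normalized intensity (log scale) of 9 miRs in the IRI (red, Cy3) and sham (dark, Cy5) pool of each of the 8 days, with the late days shaded. In the shaded days IRI lay above sham for miR-146b, miR-146a, miR-21, miR-150 and miR-199a-3p, and below it for miR-200a, miR-451, miR-486 and miR-805.

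The tested tubule miRs were called lower or not at all. Of 8 tested, 3 were lower (against 22.9% of all tested miRs), 5 were not called and none was higher. Without day 30, 4 were lower. The median ratio of -0.39 turned to 0.01 under median scaling. MiR-192, abundant in proximal tubules, read 2851, 3351 and 1856 in IRI and 7376, 6275 and 5229 in sham. Sham was higher on each day, with a ratio of -1.26 ± 0.23 (SE, adjusted p = 2.0e-04). MiR-194, which has a locus beside miR-192 and another on chromosome 1, read 804, 840 and 812 in IRI and 1831, 1901 and 1813 in sham, with nearly equal ratios of -1.19, -1.18 and -1.16. Its mean of -1.17 ± 0.22 (SE) had an adjusted p of 2.7e-04. MiR-30e was lower by a ratio of -0.57 (adjusted p = 0.045), a value that turned to 0.01 under median scaling. Its call held in only 7 of 16 alternatives, and was lost without day 14 and without day 21 among others. The other miR-30 members were between -0.44 for miR-30d and 0.39 for miR-30b, and were not called.

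The miR-200 family represses Zeb1 and Zeb2 and so maintains the epithelial state. Of its 4 tested members 2 were lower, against 22.9% of all tested miRs. MiR-200a read 1017, 776 and 793 in IRI and 2229, 2325 and 2418 in sham, a ratio of -1.44 ± 0.23 (SE, adjusted p = 5.6e-05). MiR-429 had a ratio of -0.84 (adjusted p = 0.0044), which lost its call without day 21, and miR-200b, from the same cluster, had -0.56 (adjusted p = 0.051), which passed without day 14 (adjusted p = 0.046). MiR-200c, which is transcribed elsewhere, had 0.23 (adjusted p = 0.40). Under median scaling no tubule or miR-200 miR was called, with miR-192 at -0.91 (adjusted p = 0.067), miR-200a at -0.93 (adjusted p = 0.055) and miR-194 at -0.64 (adjusted p = 0.18). MiR-187 read 162, 198 and 165 in IRI and 441, 483 and 350 in sham, a ratio of -1.27 ± 0.23 (SE, adjusted p = 1.7e-04) that was -1.92 with plain subtraction and -0.62 under median scaling, where it was not called (adjusted p = 0.19). It passed the filter on low levels through its sham level only. A higher sham level was thus a condition of its being tested, and its values are given as a description.

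The erythroid list held miR-451 and miR-486, and miR-144, which was above background in no late sample. Both miR-451 and miR-486 passed the filter on low levels through their sham level only, so a higher sham level was a condition of their being tested. Their values are given as a description of these 2 miRs and not of the list. MiR-451, which red cell precursors make by Ago2 slicing, read 114, 116 and 167 in IRI and 427, 421 and 805 in sham. IRI was below sham on each day and above background on 2 of 3 arrays, and the ratio was -2.01 ± 0.23 (SE, adjusted p = 9.7e-07). It ran from -3.04 with plain subtraction to -1.35 under median scaling, and stayed called under the 15 alternatives in which it was tested, a filter at 400 having left it out. MiR-486 read 122, 135 and 163 in IRI and 339, 504 and 709 in sham, with a ratio of -1.83 ± 0.23 (SE, adjusted p = 4.3e-06) and a range of -2.80 to -1.18 over the same settings. The summed signal of the list was 180.6 to 273.1 in IRI and 706.0 to 1454 in sham, and the part of blood left in the kidneys in these ratios was not tested.

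MiR-805 had the lowest ratio of all and, like miR-720, was among the 18 tested miRs not matched to a RefSeq mature miR. It read 2421, 4140 and 2690 in IRI and 19823, 20195 and 36305 in sham, with ratios of -3.03, -2.29 and -3.75 and a mean of -3.02 ± 0.26 (SE, adjusted p = 4.0e-08). All 3 IRI samples lay below all 3 sham samples. MiR-720 was uneven, with ratios of -2.48, -0.28 and -1.78, and its mean of -1.51 (adjusted p = 6.3e-04) lost its call without day 14 and without day 30.

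Proliferation-linked families were on the higher side. In the miR-15 family, which restrains cyclins and Bcl2, 3 of 4 tested members were higher, against 31.2% of all tested miRs. MiR-15b read 4503, 2926 and 3734 in IRI and 1351, 1250 and 1414 in sham, a ratio of 1.45 ± 0.23 (SE, adjusted p = 5.4e-05). MiR-15a had a ratio of 1.23 (adjusted p = 1.8e-04) and miR-195 of 1.10 (adjusted p = 7.7e-04), whereas miR-16, with the same seed and next to miR-15a and to miR-15b in the genome, had 0.19 (adjusted p = 0.48). Of 7 tested miRs of the miR-17-92 cluster and its paralogs, which E2F and Myc induce, 4 were higher and the median ratio was 0.58. Without day 30, 3 were higher, and under median scaling all 7 were, with a median of 1.23. Among the 4, miR-106b passed the filter on low levels through its IRI level only. MiR-25 had a ratio of 1.30 (adjusted p = 1.8e-04). MiR-20a read 818, 500 and 472 in IRI and 370, 309 and 266 in sham, with a ratio of 0.89 ± 0.23 (SE, adjusted p = 0.0030). MiR-17, 2 edits from miR-20a, had 0.74 (adjusted p = 0.0099) and miR-106b had 0.58 (adjusted p = 0.036). MiR-17 lost its call without day 14 or 21, and miR-106b without any 1 of the 3 days.

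Other families divided. MiR-125a-5p and miR-125b-5p had ratios of 1.20 (adjusted p = 0.0010) and 1.12 (adjusted p = 6.8e-04), and miR-99a and miR-99b had 0.05 and 0.39 and were not called. Without day 30 miR-125a-5p was at 0.77 and still called, and under median scaling miR-99b reached 1.00 and was called. MiR-27a had 1.20 (adjusted p = 7.7e-04), while miR-24 and miR-23a of the same cluster on chromosome 8 had 0.23 and -0.21 and were not called. MiR-27b had 0.58 (adjusted p = 0.048) and lost its call in 14 of 16 alternatives. MiR-126-3p, the endothelial miR, had -0.04 (adjusted p = 0.89) and miR-34a, a p53 target, had 0.02 (adjusted p = 0.92). Of 38 miRs of the Dlk1-Dio3 cluster none was bright enough to be tested and 35 were above background in no late sample. Outside the lists, miR-218 read 821, 817 and 518 in IRI and 327, 254 and 138 in sham, a ratio of 1.64 ± 0.23 (SE, adjusted p = 1.4e-05). MiR-132, which CREB induces, had 1.31 ± 0.24 (SE, adjusted p = 1.8e-04), with IRI at 529 to 915 and sham at 283 to 331.

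**Figure D3:**
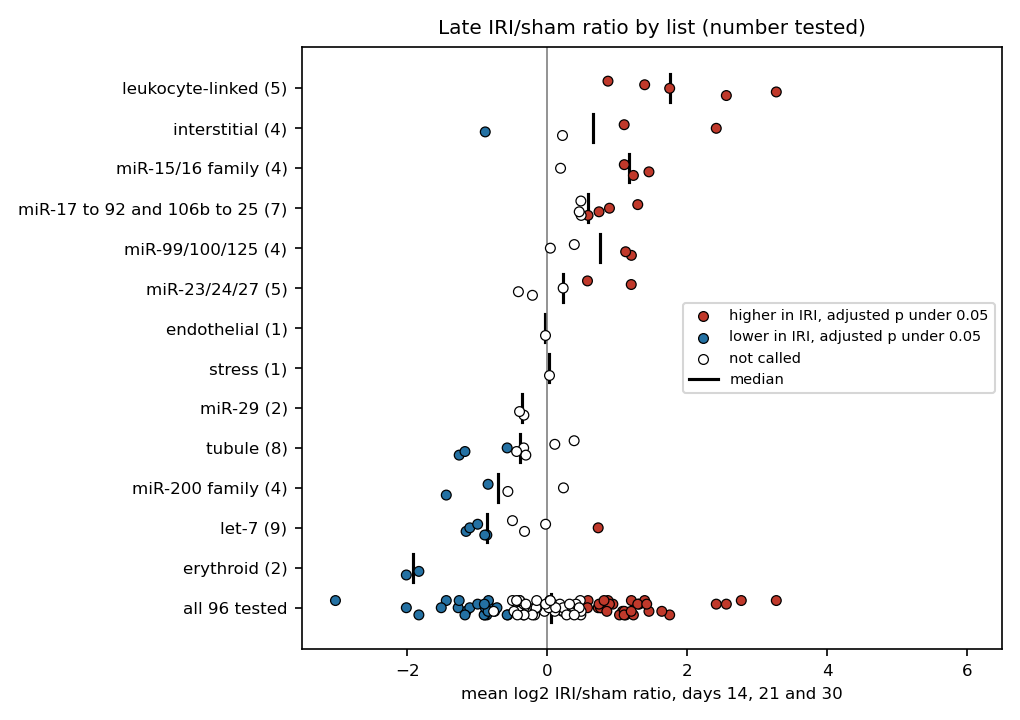
Mean late log2 IRI/sham ratio (x axis) of the tested members of 13 lists and of all 96 tested miRs (rows, number tested in brackets), coloured by call, with a bar for the median. The median was 1.75 for the leukocyte-linked list and -0.86 for the let-7 list, against 0.05 over all tested.

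The let-7 family, which restrains growth genes such as Hmga2 and Lin28a, was the only group of shared seed with calls in both directions, among 16 such groups. Of its 9 tested members 5 were lower, against 22.9% of all tested miRs, and let-7i was higher, and the median ratio was -0.86. Let-7b read 27250, 21117 and 17055 in IRI and 42457, 37851 and 67836 in sham, with ratios of -0.64, -0.84 and -1.99. Let-7c followed at -0.62, -0.71 and -1.99. Both were lower in IRI on each day, and on day 30 by more than on the other days, when the sham level was also the highest. The means were -1.16 ± 0.26 (SE, adjusted p = 0.0013) and -1.11 ± 0.27 (SE, adjusted p = 0.0022). With the authors' processed values let-7b was at -0.67 and let-7c at -0.60, still called, and with no filter on dim miRs both calls were lost (adjusted p = 0.18 and 0.21). Let-7d had ratios of -0.52, -0.62 and -1.84 with a mean of -0.99 (adjusted p = 0.0042). Let-7f had -0.47, -0.47 and -1.73 with a mean of -0.89 (adjusted p = 0.0080), and its call was lost in 7 of 16 alternatives, the authors' processed values among them. Let-7i, 3 edits from let-7b, read 12618, 10012 and 12579 in IRI and 6159, 5735 and 9867 in sham, a ratio of 0.73 ± 0.23 (SE, adjusted p = 0.012). Let-7b and let-7c differ by 1 edit, let-7a and let-7f also by 1, and how much signal their probes share was not tested. Without day 30, whose sham pool held miR-122, 3 members were lower and the median was -0.43, and let-7f was among those that lost their call. The ratios were then -0.74 for let-7b, -0.66 for let-7c, -0.57 for let-7d and -0.47 for let-7f.

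**Figure D4:**
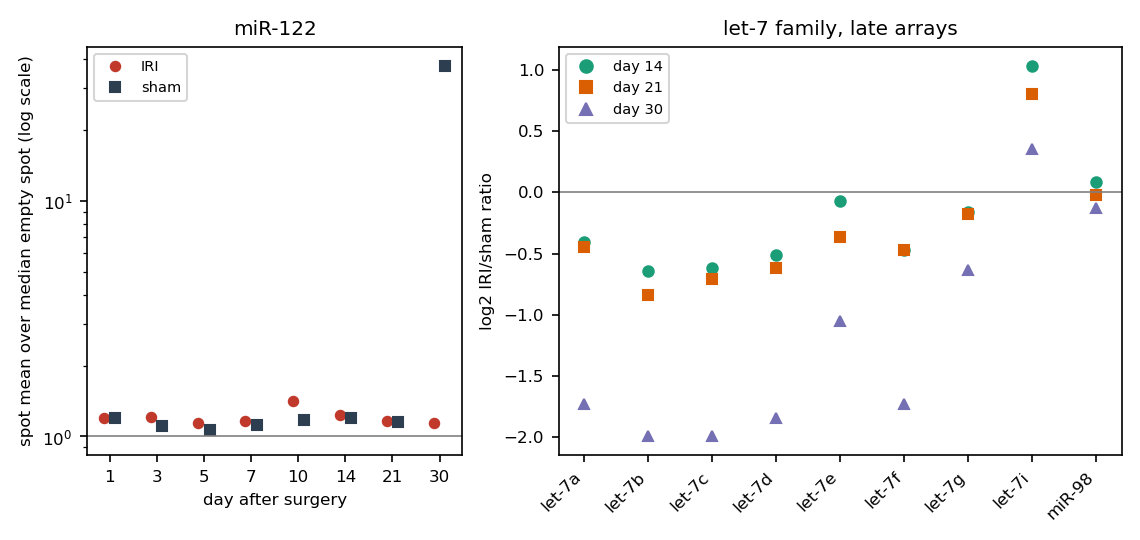
Left, mean miR-122 spot over the median empty spot (log scale) in the IRI and sham pool of each day, at 37.5 in the day 30 sham pool and 1.06 to 1.42 elsewhere. Right, log2 IRI/sham ratio of the 9 let-7 family members on the 3 late arrays, lowest on day 30 in each of the 9.

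The late ratios were then compared with those of days 1, 3 and 5 (early) and of days 7 and 10 (repair). Such a difference is free of any dye bias shared by all the arrays. Against the early days 8 of 96 miRs (8.33%) differed, 5 with a higher and 3 with a lower late ratio, and against the repair days only miR-146b did (1.04%). At an unadjusted p under 0.05 the numbers were 22 and 11. The calls include miR-146b, miR-451 and miR-486, which passed the filter on late levels through 1 late arm only. A late IRI/sham difference was thus a condition of their being tested, which favours a difference from other days. Their period values are given as a description. Without the array as a block the early comparison gave 2 higher and 2 lower. The scan of day 5 names its channels only as samples A and B, so its arms were taken from the dyes in the labels, and without that day 4 miRs were higher and 3 lower. In an exact permutation test of the 3 late against the 5 earlier arrays, 10 miRs reached the smallest p that 56 relabelings allow, 0.0179, which over 96 miRs adjusts to 0.171.

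MiR-146b had ratios of 0.31, 0.61 and 0.97 early and 1.01 and 0.14 in repair, all below its late ratios of 3.02 to 3.57. The late minus early difference was 2.65 ± 0.34 (SE, limma adjusted p = 0.0014) and the late minus repair difference 2.70 ± 0.38 (SE, adjusted p = 0.0031), although the latter lost its call without day 10, at an adjusted p of 0.081. Since miR-146b passed the filter through its late IRI level only, a high late ratio was a condition of its being tested. Both differences are therefore a description. Its sham readings, close to background, were between 98.7 and 136 on all 8 days, and IRI was at 116 to 273 up to day 10 and at 855 to 1234 thereafter. MiR-146a had ratios of -0.11, 0.27 and 0.47 early, and its late ratio was higher by 2.35 ± 0.37 (SE, adjusted p = 0.0033). MiR-150 had early ratios of 0.42, 0.15 and -0.27 and a late minus early difference of 1.65 ± 0.29 (SE, adjusted p = 0.0046), which lost its call without the array as a block (adjusted p = 0.091). Against repair, the differences of miR-146a and miR-150 were 1.63 (adjusted p = 0.13) and 0.85 (adjusted p = 0.33). MiR-155 did not follow them, since its ratio was already 1.84 early, and its late minus early difference was -0.45 ± 0.44 (SE, adjusted p = 0.54).

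MiR-805 had ratios of -0.69, -0.73 and -0.73 early, with a late minus early difference of -2.31 ± 0.37 (SE, adjusted p = 0.0033). MiR-451 had early ratios of 1.81, -0.08 and -0.54, and its late minus early difference was -2.41 ± 0.54 (SE, adjusted p = 0.023). MiR-486 had 0.74, 0.24 and -0.94 early, and a difference of -1.85 ± 0.44 (SE, adjusted p = 0.029). All 3 late ratios of each of these miRs lay below all of its earlier ones. For miR-451 and miR-486, which passed the filter through their late sham level only, a low late ratio was a condition of being tested. Their differences are therefore a description. The calls of miR-451 and miR-486 were each lost in 9 of 20 alternatives, at adjusted p values up to 0.16, among them each late array left out, the authors' processed values, loess on the tested miRs, a floor of 200, a filter at 100 and no filter. The call of miR-805 was lost under median scaling, at -1.52 (adjusted p = 0.11). MiR-125b-5p, at 1.38 ± 0.37, and miR-689, at 2.52 ± 0.68, were close to the threshold (SE, adjusted p = 0.049 for both) and were lost under most other settings. The late ratios of miR-199a-3p, miR-192, miR-194 and miR-200a differed from the early ones by 1.05, -0.98, -0.83 and -1.06, with adjusted p values between 0.12 and 0.22.

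**Figure D5:**
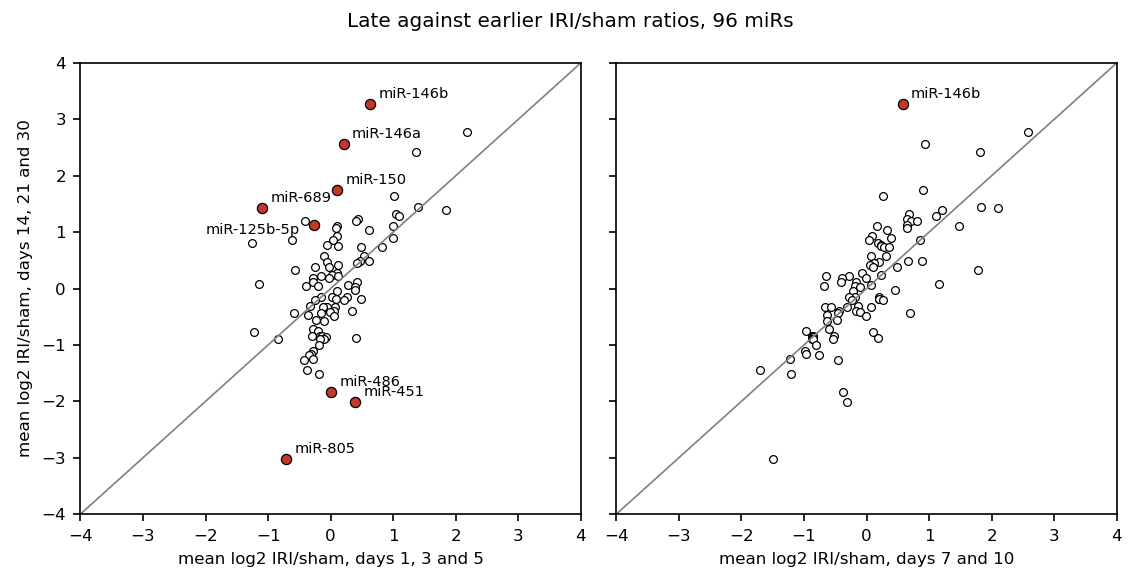
Mean late log2 IRI/sham ratio (y axis) against the mean ratio of days 1, 3 and 5 (left) or days 7 and 10 (right) for 96 miRs, with the line of equal ratios. Filled points had an adjusted p under 0.05 for the difference, 8 on the left and miR-146b on the right.

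Naive kidney RNA was read in Cy3 on an array of its own, and can be set beside the late samples only in the authors' processed values, for which the levelling between arrays is not given in the sources. MiR-146b stood at 38 in naive, 27 to 38 in late sham and 558 to 895 in late IRI. MiR-146a stood at 629 in naive, 374 to 612 in sham and 2168 to 4449 in IRI. Naive was with sham for both. For miR-451 the values were 60 in naive, 308 to 882 in sham and 53 to 104 in IRI, for miR-486 75, 238 to 662 and 61 to 79, and for miR-200a 889, 1865 to 2597 and 581 to 833. Naive, which shared its dye with IRI, was with or near IRI for these 3. MiR-805 stood at 8086 in naive, between 1714 to 3403 in IRI and 16507 to 20212 in sham. For other lower miRs naive was above sham. MiR-192 stood at 10442 in naive, 5119 to 6484 in sham and 1406 to 2899 in IRI. Let-7b stood at 70199, 34324 to 44812 and 21606 to 26554, and miR-187 at 530, 299 to 374 and 89 to 119. MiR-194 stood at 1340 in naive, between 579 to 664 in IRI and 1542 to 1671 in sham. No test was made, since naive was 1 sample.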

How the data were processed

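Small RNAs of each kidney RNA pool were poly(A)-tailed, tagged, stained with Cy3 or Cy5 and hybridised to arrays with 6 spots for each of 569 mature mouse miRs. The deposited files hold, for each spot, the mean scanner intensity before background correction, and a table of the authors' processed intensities on a linear scale. How that table was normalized was not given in the sources used here. The scanner values were used for tests and the processed values as an alternative and for the naive sample. The correlation of each processed column with its own channel was at least 0.981 over miRs, and its median was 17 to 20.

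Intensities were corrected by normexp (limma 3.58.1, R 4.3.3, offset 50) on all spots of a channel, the 6 spots were averaged, and log2 values of each array were normalized by loess (span 0.3) over miRs, controls excluded. Mean log2 levels were quantile-normalized over the 8 two-colour arrays, which leaves the ratios as they are. A miR was above background when its mean passed the median empty spot by 3 median absolute deviations. MiRs with a mean late level of at least 200 were tested with limma (lmFit, eBayes) on the log2 IRI/sham ratio, so that the array is the block. Pairing by array is fixed by the hybridisation, and the deviations of both arms from their means had a correlation of 0.18 to 0.21 within an array. Ratios of all 8 arrays were fitted by period for the late minus early and late minus repair differences. The SE given with a ratio or difference is moderated by limma, so it draws on the spread of all tested miRs. It can be smaller than the spread of that miR over the days alone would give. P-values were adjusted by Benjamini-Hochberg over all tested miRs at 0.05. Sampling error between pools is known only from the days, and the number of arrays limits the precision. The scripts were tested on simulated data. Alternatives covered the values, background, normalization, filter, spot average, spread, block and each array left out.

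The miRs named are the 9 that the study singles out, the 10 highest and 10 lowest ratios among called miRs of 1 sign, the called differences between periods, and up to 4 members of each list (leukocyte, interstitial, miR-29, tubule, miR-200, erythroid, endothelial, miR-17-92, miR-15, let-7, stress, miR-23/24/27, miR-99/100/125, Dlk1-Dio3 and other tissues). The miRs and lists were chosen with earlier results of these data known. Others named were chosen after their values were seen. Close relatives were found by edit distance, up to 3, and neighbours within 10000 bases on a strand.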

Additional observations from a re-analysis of the deposited data

Results flagged for a closer look

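The IRI/sham ratio of 8 miRs differed between the late and the early days by a test of the difference itself, with limma and adjustment over 96 miRs. The late minus early difference was 2.65 for miR-146b, 2.52 for miR-689, 2.35 for miR-146a, 1.65 for miR-150 and 1.38 for miR-125b-5p on the log2 scale. It was -2.41 for miR-451, -2.31 for miR-805 and -1.85 for miR-486. Between the late and the repair days the ratio of miR-146b differed by 2.70. MiR-146b passed the filter through its late IRI level only, and miR-451 and miR-486 through their late sham level only. For these a late IRI/sham difference was a condition of being tested, and their values are a description. No group had the 4 samples that a check for single deviating samples needs.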

How the results depend on the processing

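In arrays the number of arrays, not depth, limits these results, and dim miRs have only weak signal over background. Late IRI against sham kept between 25 (no filter on dim miRs) and 52 of its 52 calls. Under median scaling 5 miRs were lower, and leaving out 1 late array gave 23 to 29 higher and 17 to 20 lower. The higher late minus early calls, 5 as reported, were 3 with the authors' processed values, plain subtraction, offset 16, loess on the tested miRs or a floor of 200, 9 under median scaling or a filter at 100, 10 with no filter, and 3 to 9 without 1 array. The lower ones, 3 as reported, were 1 with the authors' processed values, median scaling, loess on the tested miRs, a floor of 200 or a filter at 400, and 1 to 4 without 1 array. Against repair, 5 were higher with a filter at 100, 3 with no filter, 0 with a filter at 400 and 0 to 3 without 1 array, and 1 was lower with the authors' values or no filter and 0 to 2 without 1 array.

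Without the array as a block (no pairing), late IRI gave 27 higher and 23 lower, and late minus early 2 higher.

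Some ratios turned their sign. Under median scaling miR-30e, called lower at -0.57, was 0.013, and miR-29a, miR-29c and miR-30d, not called at -0.33, -0.39 and -0.44, were 0.026, 0.18 and 0.012. MiR-126-3p was 0.054 with the authors' values, 0.019 with offset 16, 0.21 under median scaling and -0.11 to 0.068 without 1 array. MiR-34a was -0.030 with the authors' values, -0.034 with offset 16, -0.19 with plain subtraction, -0.012 with a floor of 200 and -0.21 to 0.25 without 1 array. MiR-99a was -0.067, -0.0109 and -0.18 with the authors' values, offset 16 and plain subtraction, and -0.14 to 0.23 without 1 array. The causes were not tested. Under plain subtraction the loess curve was fitted on the 394 miRs above the floor, a choice made after seeing the data, as were the list counts without day 30: let-7 lower 3, interstitial lower 0, miR-29 lower 1, tubule lower 4, miR-17-92 higher 3 and miR-23/24/27 higher 1.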
